A study of Homo sapiens with 8 samples.

Results

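The genes described are 10 secretory genes: the trefoil peptides TFF1, TFF2 and TFF3, the mucins MUC1, MUC5AC and MUC5B, the mucin-folding enzyme AGR2, and the airway defence proteins LCN2, SLPI and LYZ. They were taken by symbol out of the 38010 Ensembl gene IDs of the deposited table of estimated counts, and all 10 matched. Gene expression was measured by poly-A RNA-seq in Ea.hy926, a human line made by fusing umbilical vein endothelial cells with the lung carcinoma line A549, at confluence. The parental line (Eahy) and its Rho0 derivative, which lacks oxidative phosphorylation, gave 4 biological replicates each. The sources used here do not say how the Rho0 line was made or from how many clones. Since there is 1 line of each kind, what respiration changes and what else sets the lines apart cannot be told apart, and the p-values printed for other genes measure the spread between cultures of these 2 lines.

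Airway and gut epithelia cover themselves with mucus, which is built from gel-forming mucins such as MUC5AC and MUC5B and is overlaid on membrane-bound mucins such as MUC1. Goblet and club cells fold the large mucins in the endoplasmic reticulum with the help of AGR2, store them in granules and release them together with small trefoil peptides, which are stabilised by paired cysteines and promote repair of the epithelium. The same cells and their neighbouring glands and macrophages secrete lysozyme (LYZ), which cleaves bacterial cell walls, lipocalin 2 (LCN2), which binds bacterial iron carriers, and SLPI, an inhibitor of neutrophil proteases. A549, the epithelial parent of the hybrid, derives from distal lung epithelium.

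Libraries held 11721708 to 37203507 estimated counts, and 1 count was worth 0.0225 to 0.0753 CPM (estimated counts scaled to a common library total by edgeR's trimmed mean of M-values, TMM). Transcripts of mitochondrial DNA made up 16.0% to 21.4% of the parental libraries and 0.00296% to 0.149% of the Rho0 libraries. Rho0 replicate 2 stood apart at 0.149%, and the other Rho0 libraries were at 0.00757% or less. Of 15184 genes tested, 8257 were called at an adjusted p of 0.05 by edgeR's quasi-likelihood test, 4399 higher and 3858 lower in Rho0. With library size in place of TMM the calls were 8572 higher and 1540 lower, and the median difference over the tested genes shifted from 0.05 to 0.44 in log2 units. Of 12 endothelial markers none was below 10 counts, and they summed to 6135 to 7009 CPM in parental and 6587 to 7464 CPM in Rho0 libraries. Most of that sum was ENG, CDH5 and PECAM1. CLDN5 was too low to test, and EMCN was at 0.398 CPM in Rho0.

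By the rule that fewer than 10 counts over the 8 libraries means not expressed, 5 of the 10 genes were not expressed: TFF1, MUC5AC, AGR2, LCN2 and SLPI. The other 5, TFF2, TFF3, MUC1, MUC5B and LYZ, had between 12 and 2819 counts. Only TFF3, MUC1 and LYZ were abundant enough to be tested, and TFF3 passed the filter through the parental line alone. All 3 were called, 2 higher and 1 lower in Rho0. Over all genes tested 54.4% were called, 29.0% higher and 25.4% lower, and the CPM of the lines did not overlap for 50.9%. The genes were selected on their names as a family and on levels already seen in this same comparison, the loss of TFF3 in Rho0 above all, so their differences are given as descriptions without a test. The threshold of 10 counts falls between SLPI with 8 counts and TFF2 with 12.

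**Figure D1:**
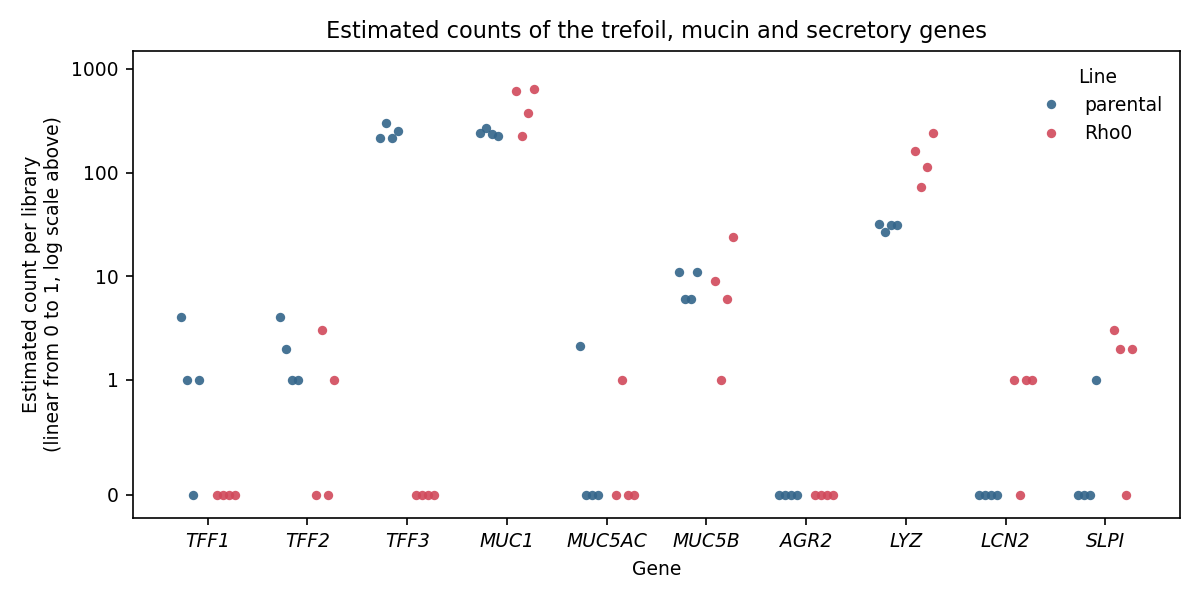
Estimated counts of the 10 genes (y axis, linear from 0 to 1 and logarithmic above), 1 point per library, with 4 parental libraries in blue and 4 Rho0 libraries in red. TFF3, MUC1 and LYZ stand apart from the other 7 genes, of which MUC5B has the most counts with 73.9 in all, and the TFF3 points lie at 214 to 302 in parental libraries and at 0 in Rho0.

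The trefoil genes lie side by side on the reverse strand of chromosome 21 (GRCh38, GENCODE 29), TFF3 at chr21:42311667-42315651, TFF2 at chr21:42346357-42351128 and TFF1 at chr21:42362282-42366594. Every run of 31 bases in the annotated transcripts of TFF3 and of TFF1 occurred in no other gene of GENCODE 29, so counts of these genes had no near-identical copy to share reads with.

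TFF3, the intestinal trefoil factor, was listed with 214, 302, 215 and 250 estimated counts in parental replicates 1 to 4 and with 0 counts in every Rho0 library. In CPM the parental replicates were at 9.81, 12.0, 11.1 and 11.6, with a mean of 11.1 ± 0.954 (SD, n = 4). The groups did not overlap, and the parental replicates lay close together with a coefficient of variation of 8.57%. A count of 0 allows up to 3 counts, which is 0.0676 to 0.226 CPM depending on the Rho0 library. Against 3 counts in each Rho0 library, TFF3 was at least 87.9-fold lower in Rho0, a bound that covers counting error only. In bulk RNA, fewer cells that express a gene and less RNA per cell cannot be told apart, here and for every gene below. In the authors' deposited log2 table TFF3 was at 3.64 ± 0.112 (SD, n = 4) in parental libraries and listed at 0 in all 4 Rho0 libraries.

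The other trefoil genes were at the limit of detection in both lines. TFF1, which is best known from stomach and from oestrogen-responsive breast cells, had 4, 1, 0 and 1 counts in parental replicates 1 to 4 and 0 counts in the 4 Rho0 libraries. TFF2, the spasmolytic peptide of the stomach, had 4, 2, 1 and 1 counts in parental and 0, 3, 0 and 1 counts in Rho0 libraries. The TFF2 groups overlapped, and the ratio of Rho0 to parental over the summed counts, 4 and 8, was 0.377 with an exact 95% interval of 0.0830 to 1.41. At these depths a difference in TFF2 was not detectable, and TFF1 was below 3 counts a library on average in both lines, so no fold change is given. The exact 95% interval of its ratio, from 0 counts in Rho0 and 6 in parental libraries, reached up to 0.640 and covers counting error only, and 4 of the 6 counts came from parental replicate 1.

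**Figure D2:**
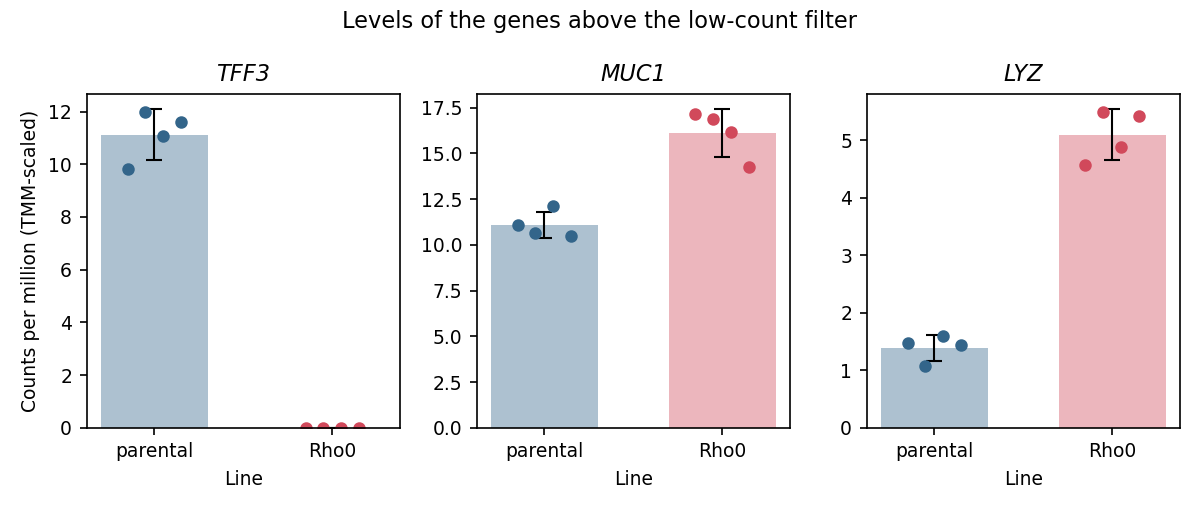
CPM of TFF3, MUC1 and LYZ by line, each gene on its own linear axis from 0. Bars are means of 4 libraries, whiskers 1 SD and points single libraries: the TFF3 points reach 9.81 to 12.0 in parental libraries and 0 in Rho0, and the MUC1 and LYZ points of all 4 Rho0 libraries lie above all parental ones.

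The genes around the trefoil cluster were low or lower in Rho0. Among 5 other protein-coding genes that start within 200 kb of a trefoil gene, UBASH3A had 0 counts, TMPRSS3, a membrane serine protease, had 9.08, and RSPH1, a cilium gene, had 60.6 and was too low to test. SLC37A1, a sugar-phosphate transporter, fell from 15.5 ± 0.706 to 4.98 ± 0.519 CPM (SD, n = 4 each), -1.63 in log2 units (SE 0.10, edgeR adjusted p = 2.8e-07). ABCG1, a cholesterol exporter, fell from 20.1 ± 1.78 to 13.2 ± 1.61 CPM (-0.61 in log2 units, SE 0.11, edgeR adjusted p = 6.2e-04). With library size alone the ABCG1 difference was -0.22 and was not called. Chromosome 21 as a whole did not have this direction: among the 133 protein-coding genes it holds that could be tested, 53 were higher and 26 lower, with a median log2 fold change of 0.20. Whether the DNA of the cluster is intact in the Rho0 line was not tested.

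MUC1 is a membrane-anchored mucin of most glandular epithelia and lies on chromosome 1 (chr1:155185824-155192916, reverse strand). Parental replicates 1 to 4 had 242, 268, 235 and 226 estimated counts and Rho0 replicates 1 to 4 had 611, 224, 378 and 634. As CPM these are 11.1, 10.6, 12.1 and 10.5 CPM in parental and 17.1, 16.9, 16.2 and 14.3 CPM in Rho0 libraries. The raw count of Rho0 replicate 2, the shallowest library, was below every parental count, while its CPM was above all of them. The means were 11.1 ± 0.724 CPM and 16.1 ± 1.29 CPM (SD, n = 4 each), and the lowest Rho0 library was above the highest parental library. The log2 fold change was 0.54 ± 0.09 (SE), or 1.45-fold, and 0.93 with library size alone, where the median of all genes also moved up. In the authors' deposited log2 table the means were 3.63 ± 0.0883 and 4.13 ± 0.111 (SD, n = 4 each), a difference of 0.50.

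MUC1 sits in a gene-dense stretch, and its neighbours did not share a direction. Of 24 protein-coding genes that start within 200 kb, 22 were tested, of which 5 were higher, 12 lower and 5 not called. The genes on either side of it, TRIM46, which organises axonal microtubules, and THBS3, a matrix thrombospondin, went from 10.3 to 15.6 CPM (0.60 in log2 units, SE 0.11) and from 26.3 to 34.6 CPM (0.39, SE 0.08), both called higher. MTX1, a mitochondrial outer membrane import protein, rose from 53.5 ± 3.74 to 79.2 ± 8.40 CPM (SD, n = 4 each), 0.57 in log2 units. Their edgeR adjusted p-values were 9.7e-04, 0.0018 and 3.9e-04. KRTCAP2, a subunit of the oligosaccharyltransferase, fell from 66.4 ± 4.73 to 46.8 ± 7.96 CPM (SD, n = 4 each), -0.50 in log2 units (edgeR adjusted p = 0.0042), a difference that was -0.12 and not called with library size alone. The readthrough gene AL713999.1, which overlaps MUC1 on the same strand, was at 0.663 ± 0.145 and 0.920 ± 0.479 CPM (SD, n = 4 each) and was not called (edgeR adjusted p = 0.22). Of the 31-base runs in MUC1 transcripts, 99.5% occurred in no other gene.

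**Figure D3:**
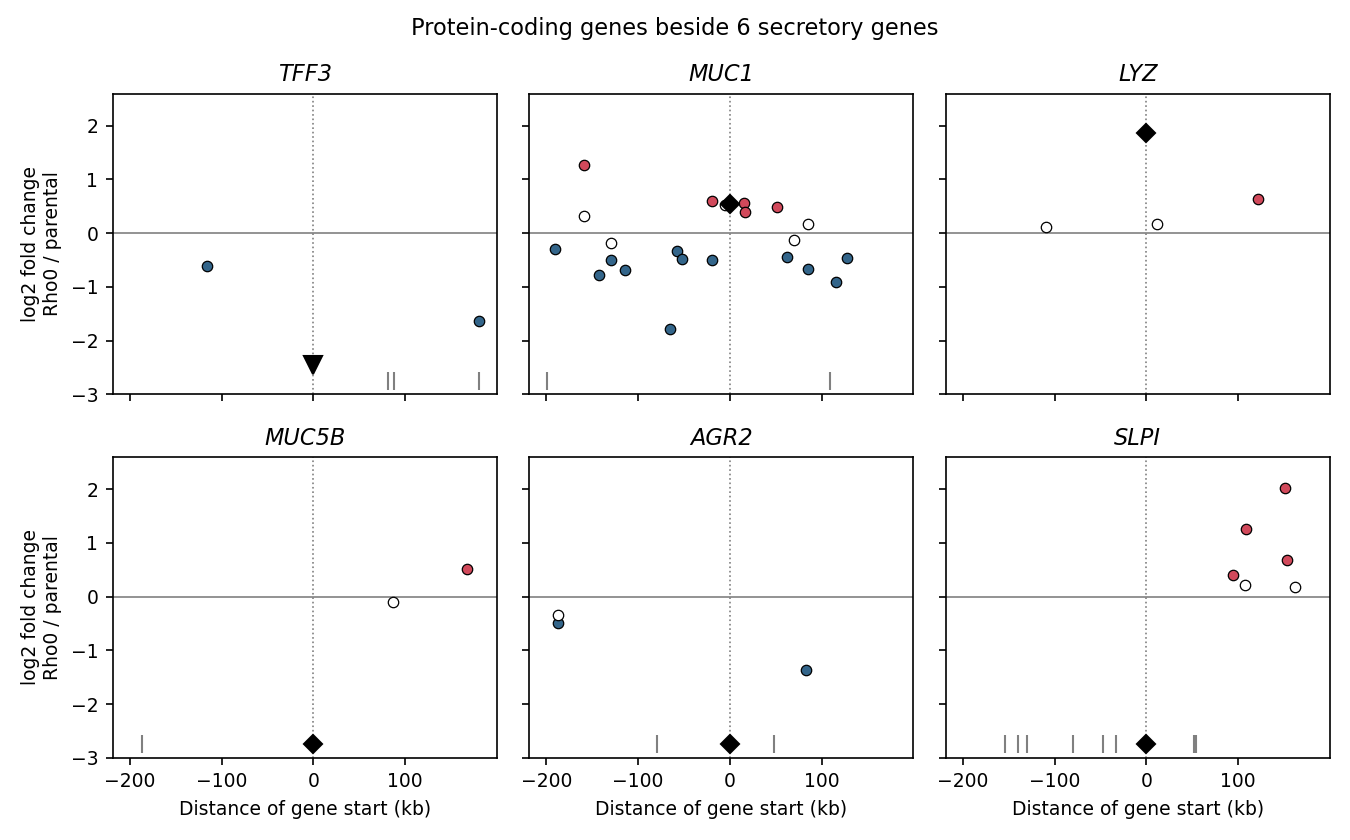
Log2 fold change (Rho0 over parental) of protein-coding genes against the distance of their start from the start of a described gene, in kilobases, for 6 of the genes (TFF3, MUC1, LYZ, MUC5B, AGR2 and SLPI). Red points were called higher, blue points lower and white points were not called. Grey ticks mark genes not tested, a black diamond marks the described gene (at the lower edge where it was not tested), and a black triangle marks TFF3, whose value lies beyond the axis. Around the trefoil cluster the 2 tested neighbours lie below 0, while around MUC1 5 lie above and 12 below among those called.

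The gel-forming mucins, which make the mucus of the airways, were nearly absent. MUC5AC, the goblet cell mucin (chr11:1157953-1201138), had 3.11 estimated counts in all, 2.11 in parental replicate 1 and 1 in Rho0 replicate 2. MUC5B, the main mucin of airway glands (chr11:1223066-1262172), had 10.9, 6, 6 and 11 counts in parental and 9, 1, 6 and 24 counts in Rho0 libraries. Its means were 0.391 ± 0.138 and 0.281 ± 0.192 CPM (SD, n = 4 each), and the groups overlapped. The ratio of Rho0 to parental over summed counts of 40 and 34 was 0.886, with an exact 95% interval of 0.547 to 1.44. MUC5B overlaps the antisense gene MUC5B-AS1, and 96.4% of its 31-base runs were its own. TOLLIP, an adaptor of Toll-like receptor signalling that starts next to MUC5B, was at 73.7 ± 1.96 and 68.5 ± 7.06 CPM (SD, n = 4 each) and was not called (log2 fold change -0.11, edgeR adjusted p = 0.30), though the value was 0.28 and called with library size alone and -0.20 and called without Rho0 replicate 1.

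AGR2, the disulfide isomerase that goblet cells need to fold mucins (chr7:16791811-16833433, reverse strand), had 0 counts in all 8 libraries, and so did its neighbour AGR3. The nearest tested gene, AHR, a receptor for aromatic compounds that starts 82.9 kb away, fell from 56.6 ± 4.71 to 21.9 ± 5.35 CPM (SD, n = 4 each), -1.37 in log2 units (SE 0.15, edgeR adjusted p = 2.8e-05).

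Of the 3 defence genes, LYZ alone was expressed. Lysozyme (chr12:69348341-69354234) had 31.7, 26.8, 31.4 and 31.4 estimated counts in parental replicates 1 to 4 and 163, 73.0, 114 and 241 in Rho0 replicates 1 to 4. In CPM the parental replicates were at 1.47, 1.07, 1.60 and 1.44 and the Rho0 replicates at 4.57, 5.50, 4.88 and 5.43. All 4 Rho0 libraries were above all 4 parental libraries, with means of 5.09 ± 0.444 and 1.39 ± 0.225 CPM (SD, n = 4 each). The log2 fold change was 1.87 ± 0.15 (SE), or 3.66-fold, and 2.27 with library size alone. The authors' deposited log2 table held 2.64 ± 0.107 in Rho0 and 1.28 ± 0.151 in parental libraries (SD, n = 4 each).

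The LYZ value is less specific than the others. Only 60.7% of the 31-base runs in its transcripts were its own, and 692 of 1761 occurred in other genes, among which the antisense gene AC020656.1, not analysed here, shared the greatest number. The libraries were made with a strand-specific kit, per the labels' protocols. The strand setting of the counting is not stated in any source used here. Within the shared runs, reads of LYZ and of its antisense partner therefore cannot be told apart. YEATS4, a chromatin reader 11.4 kb from the start of LYZ, was at 12.3 ± 1.28 and 13.8 ± 2.08 CPM (SD, n = 4 each), 0.17 in log2 units, and CPSF6, an mRNA cleavage factor, was at 75.2 ± 1.28 and 81.9 ± 5.90 CPM (0.12). Neither was called (edgeR adjusted p = 0.28 and 0.15), and both were called higher with library size alone at 0.56 and 0.52. FRS2, an adaptor of growth factor receptors 122 kb away, rose from 11.8 ± 0.621 to 18.2 ± 4.77 CPM (SD, n = 4 each), 0.63 in log2 units (edgeR adjusted p = 0.0071).

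Macrophages are a major source of lysozyme, so their markers are given beside it. Of 12 macrophage and leukocyte markers 3 were below 10 counts, TYROBP with 1, AIF1 with 1.03 and SPI1 with 9, and CD14 had 12. The list summed to 328 to 391 CPM in parental and 161 to 185 CPM in Rho0 libraries. Most of that sum was CD68, a lysosomal protein of many cell types, and LAPTM5, a lysosomal membrane protein. LAPTM5 fell from 242 ± 20.8 to 46.0 ± 2.61 CPM (SD, n = 4 each), -2.40 in log2 units (edgeR adjusted p = 5.7e-09). The part of these markers in the LYZ difference was not tested. In the tested set of 5, CD68 and PTPRC were called higher and LAPTM5 and CSF1R lower. CD68 was at 104 ± 9.53 and 127 ± 9.13 CPM (SD, n = 4 each), and its libraries overlapped. Its call was lost without Rho0 replicate 3, at 0.26 in log2 units (edgeR adjusted p = 0.059). In that fit 0 genes of the list were called higher and 2 lower. PTPRC, the pan-leukocyte phosphatase, was at 0.655 ± 0.0981 and 1.02 ± 0.231 CPM (SD, n = 4 each; edgeR adjusted p = 0.039), and this call was lost in 9 alternatives.

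LCN2 (chr9:128149071-128153455) and SLPI (chr20:45252239-45254564, reverse strand) were not expressed. LCN2 had 0 counts in the parental libraries and 1, 0, 1 and 1 in Rho0 replicates 1 to 4. SLPI had 0, 0, 0 and 1 counts in parental and 3, 2, 0 and 2 in Rho0 libraries, and the groups overlapped. The genes beside LCN2 were active: PTGES2, a prostaglandin E synthase, fell from 76.4 ± 1.63 to 47.6 ± 8.01 CPM (SD, n = 4 each), -0.69 in log2 units (edgeR adjusted p = 4.3e-04). The nearest, C9orf16 (BBLN), 11.2 kb away, fell from 42.3 ± 1.11 to 31.1 ± 7.17 CPM (SD, n = 4 each), -0.44 in log2 units (edgeR adjusted p = 0.019), a call lost with library size alone at -0.06 and without Rho0 replicate 3 at -0.37. SLPI lies among protease inhibitor and semenogelin genes on chromosome 20, of which PI3, WFDC5, SEMG1 and SEMG2 had 0 counts in all 8 libraries. WFDC12 of the same cluster had 40.3 counts in all and was too low to test. The first tested gene past them, SDC4, a cell-surface heparan sulfate proteoglycan, rose from 44.2 ± 0.860 to 58.3 ± 4.02 CPM (SD, n = 4 each), 0.40 in log2 units (edgeR adjusted p = 7.1e-04).

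Around all 10 genes together, 66 other protein-coding genes start within 200 kb and 50 were tested, of which 12 were higher, 24 lower and 14 not called in Rho0, with a median log2 fold change of -0.24. Over all protein-coding genes 56.7% were called. With library size alone the same 50 neighbours gave 23 higher and 9 lower.

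Levels of different genes were compared per length, as CPM per kilobase of the longest coding transcript. In parental cells TFF3 led with 10.0, followed by MUC1 with 2.66, LYZ with 0.911, TFF2 with 0.122 and MUC5B with 0.0218. In Rho0 cells the order began with MUC1 at 3.86 ± 0.309 and LYZ at 3.33 ± 0.290 (SD, n = 4 each), whose libraries overlapped, while TFF2 at 0.0843 ± 0.149 and MUC5B at 0.0157 ± 0.0107 (SD, n = 4 each) were far below and also overlapped. With the median transcript length the first 3 places in the parental line were the same, at 25.5 for TFF3, 12.0 for MUC1 and 2.08 for LYZ. In Rho0 MUC1 at 17.4 ± 1.39 and LYZ at 7.61 ± 0.664 (SD, n = 4 each) then did not overlap, and MUC5B then stood above TFF2 in both lines.

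Genes that followed the same pattern over the 8 libraries were many, since each pattern is mainly the difference between the lines. The highest Pearson correlation of log2 CPM was with CORO1C, an actin-binding coronin, for TFF3 (r = 0.999, n = 8 libraries), with BCAM, a laminin receptor, for MUC1 (r = 0.998, n = 8) and with TAF3, a subunit of the general factor TFIID, for LYZ (r = 0.999, n = 8). Of 13252 genes compared, 1216 reached r = 0.95 with TFF3, 620 with MUC1 and 1095 with LYZ. These correlations are descriptions over libraries of 2 lines, and CORO1C fell by 0.93 on the log2 scale, from 355 to 186 CPM, a far smaller step than that of TFF3.

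Other mucin genes were called in both directions. Of 16 further mucin core genes in the table, 6 were below 10 counts and 6 were tested, of which 2 rose, 2 fell and 2 were not called, with a median log2 fold change of 0.01 against 0.05 for all genes. MUC16, the membrane mucin known as the antigen CA125, was at 2.02, 2.94, 2.42 and 1.77 CPM in parental replicates 1 to 4 and had 2 counts in all in Rho0, both in replicate 4. It fell 135-fold over summed counts, with an exact 95% interval of 36.8 to 1120. EMCN, an endothelial sialomucin, fell from 7.77 ± 0.627 to 0.398 ± 0.0475 CPM (SD, n = 4 each), -4.24 in log2 units (SE 0.15, edgeR adjusted p = 6.4e-09). EMCN passed the filter through the parental line alone, with 48 counts in all in Rho0. MUC13, a membrane mucin of the gut, rose from 1.60 ± 0.385 to 6.20 ± 0.743 CPM (SD, n = 4 each), 1.96 in log2 units (SE 0.18, edgeR adjusted p = 6.1e-06), and OVGP1, an oviduct glycoprotein, rose from 1.01 to 1.76 CPM (0.82, edgeR adjusted p = 0.0047).

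Among 17 partners and receptors of trefoil peptides, mucins and lipocalin, 8 were tested, 4 rose and 4 were not called, with a median log2 fold change of 0.55. CXCR4, a chemokine receptor that trefoil peptides can engage, had 0 counts in the 4 parental libraries and was at 2.02, 1.81, 1.37 and 1.58 CPM in Rho0 replicates 1 to 4, at least 12.3-fold higher against 3 counts in each parental library. With CXCR4 at that bound the median is the same, since it stays the highest of the list. SLC22A17, the lipocalin 2 receptor, rose from 1.40 ± 0.174 to 4.67 ± 0.603 CPM (SD, n = 4 each), 1.73 in log2 units (edgeR adjusted p = 6.2e-06), while LCN2 itself was not expressed. EGFR, a receptor that MUC1 associates with, rose from 18.1 ± 1.70 to 35.5 ± 7.81 CPM (SD, n = 4 each), 0.98 in log2 units (edgeR adjusted p = 2.5e-04). With library size alone all 8 were called higher.

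Of 26 transcription factors of secretory epithelium, 9 were below 10 counts and 8 were tested, of which 5 rose and 2 fell, with a median of 0.60 (5 higher and 1 lower with library size alone). KLF4, a factor of goblet cell differentiation, rose from 1.38 ± 0.151 to 4.64 ± 0.268 CPM (SD, n = 4 each), 1.74 in log2 units (edgeR adjusted p = 2.1e-06), GATA6 from 10.9 ± 1.13 to 20.5 ± 0.723 CPM (0.91, edgeR adjusted p = 1.3e-05) and the oestrogen receptor ESR1 from 0.752 ± 0.172 to 1.45 ± 0.513 CPM (0.99, edgeR adjusted p = 0.014). CREB3L1, a membrane-bound factor of secretory cells, fell from 6.90 ± 0.193 to 2.24 ± 0.514 CPM (-1.65, edgeR adjusted p = 1.2e-05).

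Genes listed for mucin-type O-glycans changed in both directions, 7 higher and 7 lower among 20 tested, with a median of 0.09. The list includes ST6GAL1, which acts mainly on N-glycans. GALNT16, a transferase that starts the chains, rose from 0.426 ± 0.0875 to 4.74 ± 0.352 CPM (SD, n = 4 each), 3.44 in log2 units (edgeR adjusted p = 8.2e-08). GALNT16 passed the filter through Rho0 alone, with 38 counts in all in parental libraries. The sialyltransferases ST6GALNAC1 and ST6GAL1 rose by 1.86 and 1.50 on the log2 scale. B3GNT3, which extends core chains, fell from 35.0 ± 3.41 to 1.93 ± 0.562 CPM (SD, n = 4 each), -4.25 in log2 units (edgeR adjusted p = 2.8e-08), GALNT6 from 173 to 63.4 CPM (-1.45) and GCNT1, which branches the chains, from 9.59 to 3.70 CPM (-1.35). With library size alone the split was 11 higher and 5 lower.

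The machinery of mucin folding, granules and release leaned to lower values, with 6 higher and 10 lower among 22 tested and a median of -0.19, whereas with library size alone the split was 9 higher and 3 lower and the median 0.20, and with the size factors of DESeq2 it was 4 higher and 11 lower. VAMP8, a vesicle protein of mucin release, fell from 2.30 ± 0.640 to 0.241 ± 0.160 CPM (SD, n = 4 each), -3.28 in log2 units (edgeR adjusted p = 5.0e-05), and parental replicate 1 stood above the other 3 parental libraries. VAMP8 passed the filter through the parental line alone, with 27 counts in all in Rho0. The chloride channel ANO1 fell from 1.69 to 0.636 CPM (-1.43) and the syntaxin STX3 from 110 to 64.9 CPM (-0.77). UNC13D, a priming factor of exocytosis, rose from 2.97 to 5.47 CPM (0.86), the stress sensor ERN1 from 23.6 to 39.5 CPM (0.74) and the disulfide isomerase P4HB from 884 to 1184 CPM (0.42).

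Genes of airway secretory and alveolar type 2 cells were largely silent or low: 9 of 26 were below 10 counts and 12 were tested, of which 2 rose and 4 fell, with a median of -0.03. TSPAN8, an epithelial tetraspanin, was at 1.32 ± 0.185 CPM (SD, n = 4) in parental libraries and had 1 count in Rho0, a 154-fold fall over summed counts with an exact 95% interval of 27.1 to 6133. SFTPB, a surfactant protein, fell from 2.97 ± 0.0697 to 1.42 ± 0.0856 CPM (SD, n = 4 each), -1.06 in log2 units (edgeR adjusted p = 7.2e-05). PSCA fell from 8.52 to 5.58 CPM (-0.62), a call that was lost with library size alone at -0.22. LTF, lactoferrin, rose from 0.358 to 1.05 CPM (1.55) and ABCA3, the lipid transporter of surfactant storage, from 49.1 to 67.8 CPM (0.46). With library size alone the split was 5 higher and 2 lower and the median 0.37.

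Of 20 epithelial antimicrobial and acute-phase genes 11 were below 10 counts and 2 were tested, NFKBIZ and HAMP, named here after their values were seen. In the main edgeR fit 0 of them were called, and 1 had an unadjusted p under 0.05. In 8 of 17 alternatives 1 gene of the list was called. The call was higher with library size alone. It was lower with DESeq2 size factors, with totals without mitochondrially encoded genes and by limma-trend on the deposited log2 table. It was also lower without parental replicate 3 and without Rho0 replicate 4. Without a filter and by DESeq2's Wald test, which each kept 14 of the genes, 1 was called lower. The list's tested median of 0.03 rests on NFKBIZ and HAMP.

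**Figure D4:**
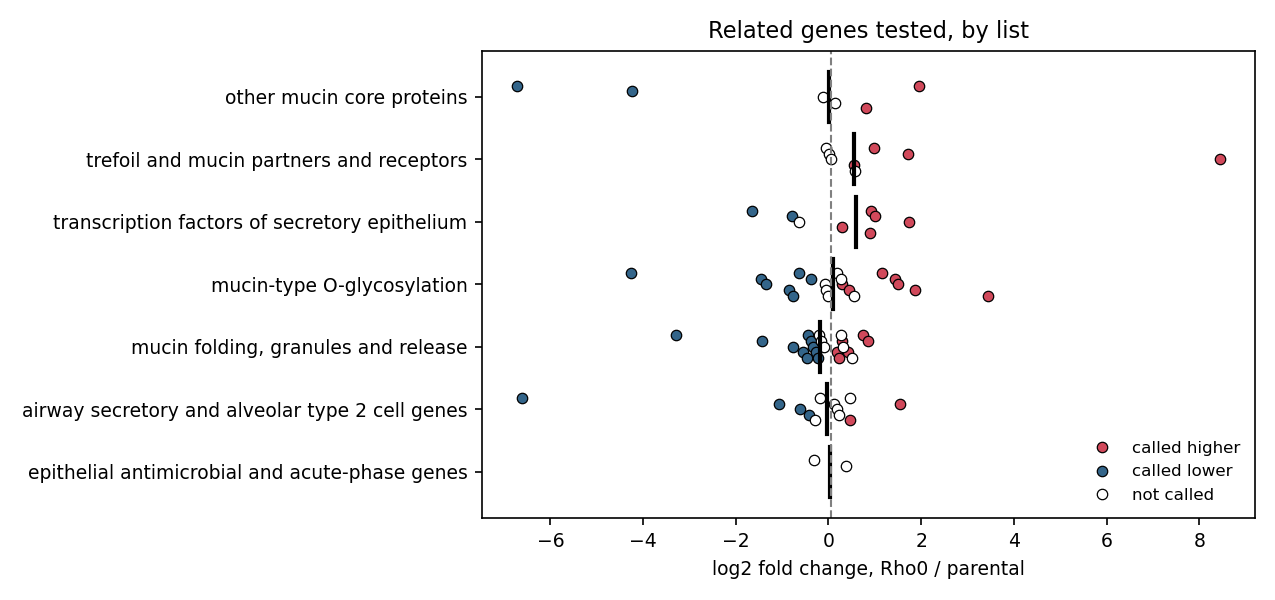
Log2 fold change (Rho0 over parental) of each tested gene in the 7 related lists. Points are genes, red called higher, blue called lower and white not called, black bars are list medians, and the dashed line is the median of all genes tested at 0.05. The lists spread on both sides of the line, from -0.19 for the folding and granule genes to 0.60 for the transcription factors. The outermost points, MUC16, TSPAN8 and CXCR4, have 0 to 2 counts in 1 line, so their fitted values are no measure of size.

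Over the 7 related lists, 160 different genes gave 158 in the table and 78 tested, of which 26 rose, 25 fell and 27 were not called. Their median log2 fold change was 0.08 against 0.05 over all genes, and with library size alone the split was 42 higher and 13 lower. Of 12 markers of lung epithelium 7 were tested, of which 1 was higher, 4 lower and 2 not called (2 higher and 4 lower with library size alone), and their sum was 2610 to 2882 CPM in parental and 1296 to 2080 CPM in Rho0 libraries. That sum was almost entirely 3 keratins. KRT7 was at 912 ± 32.0 and 829 ± 147 CPM (SD, n = 4 each) and was not called (-0.14 in log2 units, 0.25 with library size alone, edgeR adjusted p = 0.38). KRT8 was at 888 ± 31.1 and 385 ± 73.4 CPM (SD, n = 4 each), -1.21 in log2 units (edgeR adjusted p = 1.8e-05), and KRT18 at 899 ± 61.9 and 487 ± 106 CPM (-0.89, edgeR adjusted p = 4.5e-04). Junction and adhesion genes of epithelia were low in both lines. EPCAM was called higher, at 0.428 ± 0.0808 and 0.951 ± 0.150 CPM (SD, n = 4 each, edgeR adjusted p = 0.0022), and CDH1 was at 0.754 and 0.912 CPM and not called. EPCAM passed the filter through Rho0 alone, with 38 counts in all in parental libraries. The claudins CLDN4 and CLDN7 fell, from 2.78 to 1.61 CPM (-0.80) and from 1.15 to 0.433 CPM (-1.39), with edgeR adjusted p-values of 0.0021 and 0.0031. CLDN7 passed the filter through the parental line alone, with 50 counts in all in Rho0. The GTPase RAB25 and the splicing factor ESRP1 had under 5 counts each. KRT7, EPCAM, CDH1 and CLDN4 are named after their values were seen. The part of these markers in the differences of TFF3, MUC1 and LYZ was not tested. Of the 12 endothelial markers 11 were tested, 4 rose and 3 fell (7 and 3 with library size alone), with KDR rising from 13.8 ± 0.793 to 130 ± 13.5 CPM (SD, n = 4 each), 3.24 in log2 units, and CDH5 falling from 1716 ± 92.4 to 1033 ± 32.7 CPM (-0.73).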

How the data were processed

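The authors deposited estimated counts for 38010 Ensembl gene IDs in 8 libraries, and a table of 12885 genes on a log2 scale. Per the submitters' processing notes, kallisto, edgeR and limma were used with GRCh38; neither their roles nor versions are recorded. The annotation release and the strand setting of the counting are not given in the sources used here. All columns belonged to the 8 libraries.

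Estimated counts were rounded to whole numbers. In R 4.3.3, edgeR 4.0.16 kept genes by filterByExpr (minimum count 10), scaled libraries by TMM and ran its quasi-likelihood test between the lines, adjusted by Benjamini and Hochberg over 15184 genes. Genes could pass this filter through a single line. Among others, VAMP8, EMCN and CLDN7 passed through the parental line, and GALNT16 and EPCAM through Rho0. The standard error is the log2 fold change over the square root of F. Symbols, coordinates and transcripts are those of GENCODE 29. The coding sequences of the trefoil genes are not reported here. Floors of 3 counts a library and exact 95% intervals cover counting error only. No pair of replicates agreed within sampling noise. The code was tested on simulated data.

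The 10 genes and the lists were chosen with earlier results of these data known. List examples are up to 3 called genes per direction with the largest change and at least 1 CPM in the higher line. Neighbours are named nearest first, within 200 kb, and genes alike in pattern by the highest correlation. The 2 remaining mucins of the list, and any antisense partners, were not analysed here. Alternatives were other scalings and filters, DESeq2 1.42.0, limma-voom and limma-trend (limma 3.58.1), the replicate block, and each library left out in turn.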

Additional observations from a re-analysis of the deposited data

Results flagged for a closer look

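Over 48 genes, each with 4 parental and 4 Rho0 libraries, 96 groups were examined for a library that stands apart from the other 3 of its line, and 8 groups had one. For normally distributed values chance gives about 1 in 20 such groups. That rate does not hold for counts at or near 0, as for TFF2, MUC16 and TSPAN8 in Rho0. Rho0 replicate 2 held 0.226 CPM of TFF2, which is 3 counts in the shallowest library, against 0 to 0.0225 CPM in the others. The last traces of MUC16 and TSPAN8 in Rho0 each came from 1 library, 0.0450 CPM of MUC16 in replicate 4 and 0.0753 CPM of TSPAN8 in replicate 2, with the other 3 at 0. VAMP8 was at 3.26 CPM in parental replicate 1 against 1.91 to 2.09 CPM in the other parental libraries, so its parental mean leans on that library. Parental replicate 3 stood apart for TEK, an angiopoietin receptor, at 86.9 CPM against 96.2 to 97.1, for ESAM, an endothelial junction protein, at 458 CPM against 393 to 403, and for KRT18 at 991 CPM against 859 to 878. EPCAM was at 0.728 CPM in Rho0 replicate 3 against 1.01 to 1.05 CPM in the other Rho0 libraries.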

How the results depend on the processing

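Over 17 alternatives the log2 fold change of MUC1 ran from 0.48 to 0.93 and that of LYZ from 1.36 to 2.27. These ranges are descriptions, since the genes were chosen on this comparison. The lowest LYZ value, 1.36, came from limma-trend on the authors' deposited log2 table. That table lists TFF3 with 0 counts at 0, so its differences for low genes are not on the scale of the other fits. With each library left out LYZ ran from 1.75 to 1.94. The count of genes called over all features ran from 7265 to 10112, and with each library left out from 7265 to 8981. Of the related list genes, 46 to 53 were called with each library left out and 40 under the stricter filter of 50 counts in 4 libraries. For the neighbours these counts were 31 to 40, and a window of 100 kb gave 17 called and one of 500 kb 71. Among the genes whose fold change is printed, TOLLIP went to 0.28 and was called with library size alone, and KRT7, not called either way, went from -0.14 to 0.25. Of 1040 comparisons over 62 gene results, the call was the same in 1019, lost in 16 and gained in 4. In the remaining 1, TOLLIP, not called in the main fit, was called with the opposite sign under library size alone. The 62 include TFF3, MUC1 and LYZ, chosen on this comparison, and list genes named for the largest called changes. The share of unchanged calls was partly set by that choice and is no measure of how robust other genes are. No pairing of libraries by replicate number was seen. The correlation of deviations between libraries of the same number ran from -0.13 to 0.16, and between libraries of differing numbers from -0.25 to 0.19. These values do not settle whether the lines shared batches. With the replicate block 8017 genes were called, 4215 higher and 3802 lower. For the genes not expressed, and for TFF2, depth sets what could be seen: 3 counts are worth up to 0.226 CPM.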
